A study of Mus musculus with 24 samples.

Results

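Mouse oocytes were measured by RNA sequencing, and the 9 genes described here encode enzymes of mitochondrial fatty acid oxidation: Cpt1a, Cpt2, Acadvl, Acadl, Acadm, Acads, Hadha, Hadhb and Etfdh. They were chosen by gene symbol, and all 9 were found among the 55401 genes of the count table. A filter on low counts left 16736 genes for testing, of which 8 were members, and Acads was not tested. The series set exposure to polystyrene microplastics (PSMPs) beside histone deacetylase and H4K16 acetylation, and its CUT&Tag libraries for that mark were not analysed here. The groups were PSMPs & OE-Hdac3 (PSMPs with overexpression of Hdac3, which encodes a histone deacetylase), SAHA (vorinostat, an inhibitor of histone deacetylases), in vivo PSMPs, in vitro PSMPs, con-in vitro and con. By the labels, each group had 2 libraries, each made from 5 oocytes, which the design text calls embryos. The labels give no strain, age, dose, time or culture medium, and they do not say which control belongs to SAHA or by which route the Hdac3-overexpressing oocytes met the particles, so both candidates were compared in each case. Nothing states that replicates came from separate animals or cultures, so a p-value measures only the spread between these libraries, which may be technical.

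Fatty acids are burned inside mitochondria. Long-chain fatty acids enter as carnitine esters, made by Cpt1a and undone by Cpt2, and are then shortened in repeated cycles in which an acyl-CoA dehydrogenase opens each round, the trifunctional protein (Hadha with Hadhb) completes it for long chains, and Etfdh passes the electrons on to the respiratory chain. Oocytes carry lipid stores, and fatty acid oxidation is known to serve meiotic maturation and early development.

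Both in vivo PSMPs columns agreed within sampling noise, with a chi-square per degree of freedom of 0.444 where the replicates of other groups gave 16.5 to 384, and so they entered as 1 library, which left 11. Library totals ran from 6219784 counts in con-in vitro to 35637689 counts in con. In the PSMPs & OE-Hdac3 libraries Hdac3 stood at 336 and 228 CPM (TMM-normalised counts per 1000000 counts of a library), against 15.3 and 9.37 CPM with in vitro PSMPs and 12.7 CPM with in vivo PSMPs. Of 21 oocyte markers, at least 20 had a count in each library. Cumulus and granulosa cell markers summed to 173 CPM with in vivo PSMPs, where 17 of 22 genes had a count. The sums were 47.5 and 70.8 CPM in con, where 5 of 22 did in each. In the other groups the sum ran from 35.8 to 110 CPM. There, 12 to 17 of the 22 had a count with PSMPs & OE-Hdac3, SAHA or in vitro PSMPs, and 7 and 5 in con-in vitro. The part of those cells in any result was not tested. In pooled oocytes, fewer cells with a transcript and less transcript per cell cannot be told apart.

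Per gene length, as counts scaled by exonic length and then to 1000000 per library (TPM), the pathway was uneven. Cpt2 and Acadm had the 2 highest group means of the 9 in 4 of the 6 groups; with SAHA, Acadl at 40.3 TPM came before Cpt2 at 38.7 TPM, and in con-in vitro Hadha at 6.69 TPM came before Acadm. Group means ran from 14.9 to 172 TPM for Cpt2 and from 4.41 to 108 TPM for Acadm. Acadl, Hadha and Hadhb were intermediate, with group means from 2.13 to 40.3 TPM. Cpt1a, Acadvl, Acads and Etfdh never exceeded a group mean of 1.96 TPM. Of the steps between the members, which were picked for this description with their values known, Cpt1b, the muscle form of the first enzyme, was at 0 in every group, and Cpt1c, its neuronal relative, stayed at or below 2.57 TPM. Slc25a20, the carrier that brings acylcarnitines through the inner membrane, had 0.679 to 10.8 TPM. Etfa, a subunit of the flavoprotein that hands electrons to Etfdh, had 158 to 451 TPM, while its partner subunit Etfb had 0.891 to 31.6 TPM.

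**Figure D1:**
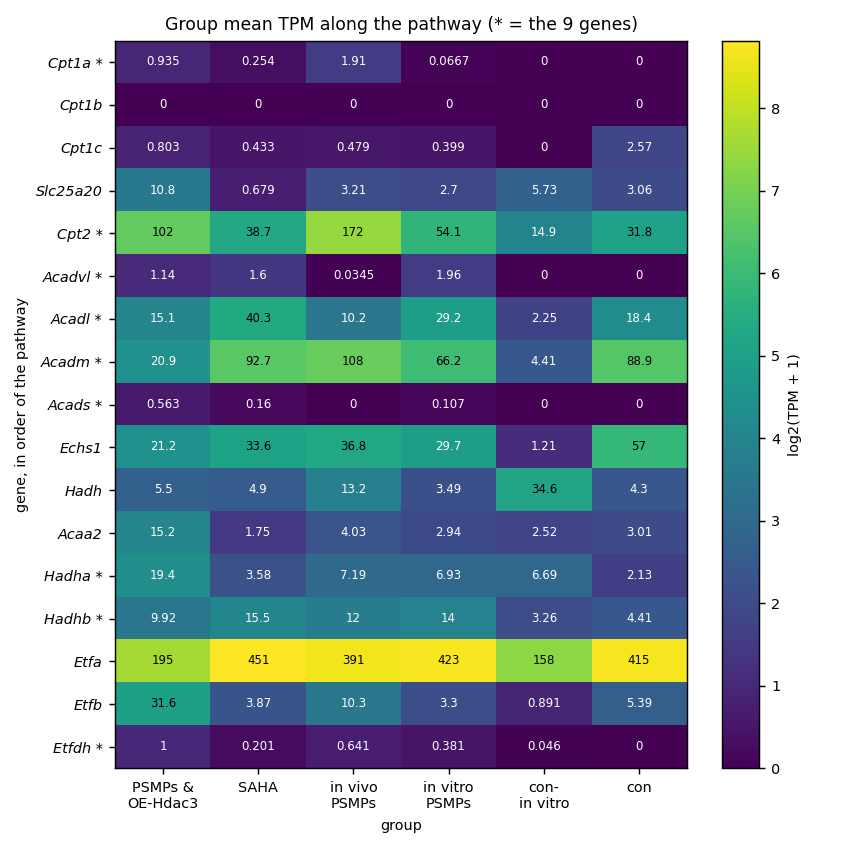
Group mean TPM of the 9 genes (asterisks) and of neighbouring steps, in pathway order from top to bottom, one column per group; colour gives log2(TPM + 1) and each cell prints the TPM. Cpt2, Acadm and Etfa form the bright rows, while Cpt1a, Acadvl, Acads and Etfdh stay dark in every column.

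Several of these transcripts were not counted at all in control oocytes. Cpt1a, Acadvl and Acads had 0 counts in both con and both con-in vitro libraries, and Etfdh had 0 in both con libraries and a single count over the con-in vitro libraries. Each of the 4 control libraries had 4 of the 9 genes at 0, with Acadl in place of Etfdh in con-in vitro replicate 2. The in vivo PSMPs library had 1 gene at 0 and the SAHA libraries 1 and 0. The libraries of PSMPs & OE-Hdac3 and in vitro PSMPs had none. More genes had any count outside the controls, 17559 with in vivo PSMPs and 20284 to 20957 in the other exposed or treated libraries, against 11640 to 12843 in control libraries. Of the tested genes, 8.16% were at 0 in the in vivo PSMPs library and 1.48% to 2.59% in all libraries of PSMPs & OE-Hdac3, SAHA or in vitro PSMPs, with none of the 8 tested members, against 24.2% in both con-in vitro libraries, with 2 of the 8, and 21% in both con libraries, with 3 of the 8. A gene at 0 in a control group passed the count filter only through other groups. The part of this wider difference in the members' zeros was not tested. A library with no count still allows up to 3 counts, which is 0.0773 to 0.104 CPM in con but 0.82 to 0.89 CPM in the shallow con-in vitro libraries, so a level under about that size was not detectable there; such limits cover counting error only.

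**Figure D2:**
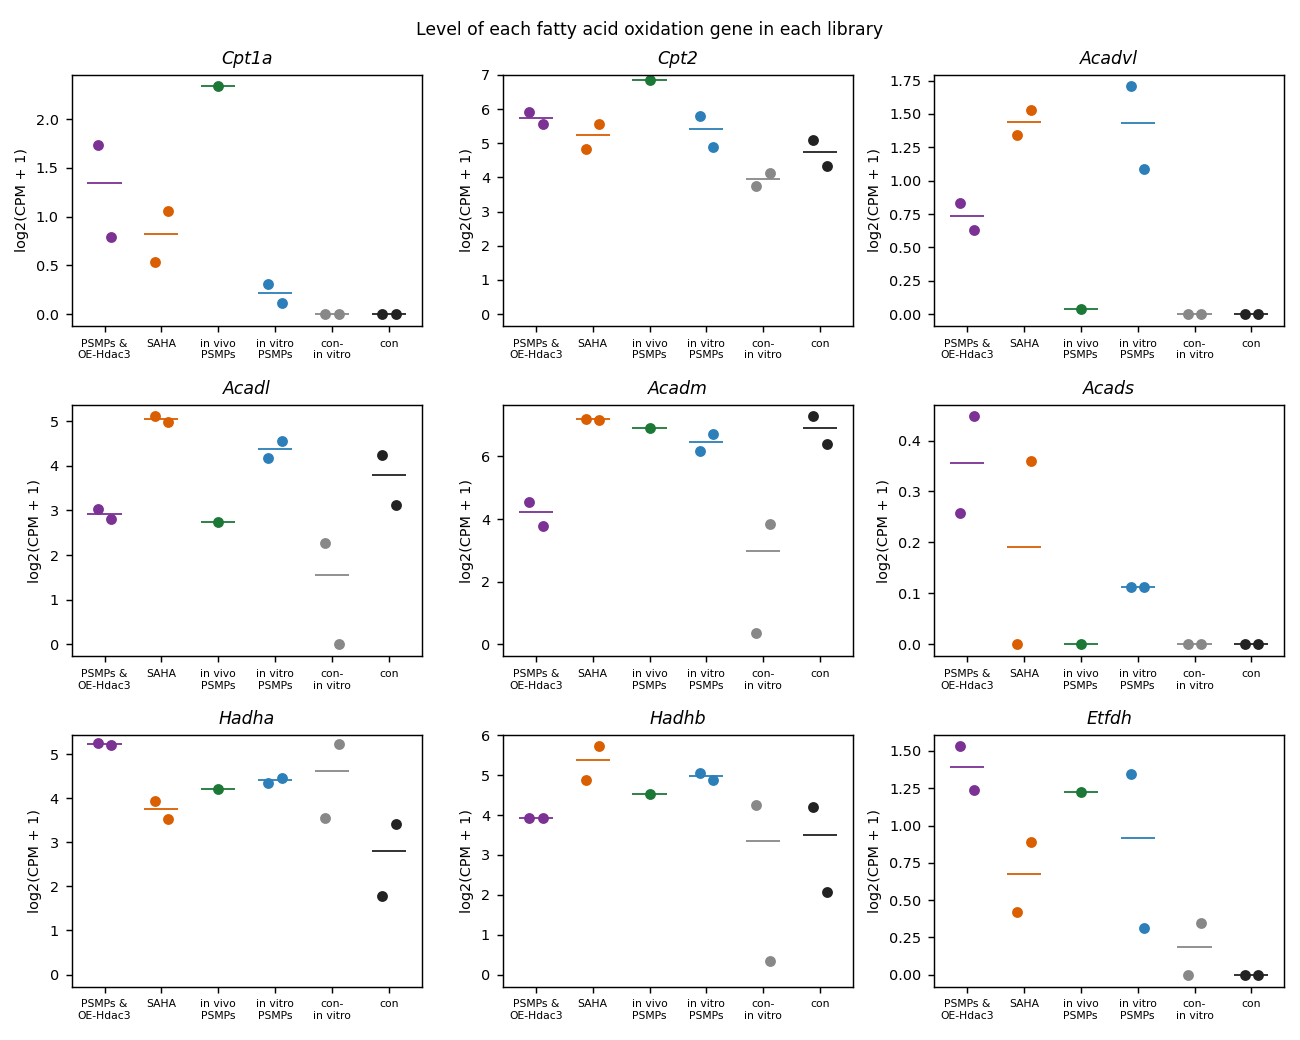
Level of each gene as log2(CPM + 1) in each library (points) with the group mean of CPM (line), for 2 libraries per group and 1 for in vivo PSMPs. Cpt1a and Acadvl lie at 0 in all 4 control libraries, and Acadm is low in con-in vitro and in PSMPs & OE-Hdac3.

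Cpt1a (ENSMUSG00000024900.5, chr19:3322334-3385733, plus strand, mm10) encodes the liver form of carnitine palmitoyltransferase on the outer mitochondrial membrane, the controlled entry step of the pathway. It had 2.34 and 0.728 CPM with PSMPs & OE-Hdac3, 0.453 and 1.08 CPM with SAHA, 4.07 CPM with in vivo PSMPs and 0.243 and 0.0808 CPM with in vitro PSMPs, against 0 in all 4 control libraries. The in vivo PSMPs library was the highest, and the PSMPs & OE-Hdac3 and SAHA libraries overlapped. Cpt2 (ENSMUSG00000028607.16, chr4:107903981-107923610, minus strand), the inner-membrane enzyme that returns the fatty acid to coenzyme A, had 59.3 and 46.2 CPM with PSMPs & OE-Hdac3, 27.3 and 46.1 CPM with SAHA, 115 CPM with in vivo PSMPs and 54.7 and 28.9 CPM with in vitro PSMPs, against 12.5 and 16.7 CPM in con-in vitro and 32.9 and 19.1 CPM in con. It was again highest in the in vivo PSMPs library and lowest in con-in vitro, with the groups between them overlapping their neighbours. Over the 6 group means, as centred log2(CPM + 1), Cpt1a and Cpt2 were each other's nearest member, with a root mean square difference of 0.378.

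The acyl-CoA dehydrogenases each open the cycle for their own chain length, and they did not share a profile. Acadvl (ENSMUSG00000018574.14, chr11:70010183-70015411, minus strand), for very long chains, had 0.781 and 0.546 CPM with PSMPs & OE-Hdac3, 1.53 and 1.88 CPM with SAHA, a single count (0.0258 CPM) with in vivo PSMPs and 2.27 and 1.13 CPM with in vitro PSMPs, against 0 in all 4 control libraries. It was thus counted in each library of PSMPs & OE-Hdac3, SAHA and in vitro PSMPs, and close to absent from the in vivo PSMPs library. Its exons share 1151 bases with those of Dvl2 on the other strand, and the strand setting of the counting is not given in the sources used here, so reads from the shared stretch cannot be told apart. Dvl2 had 120 and 129 counts with PSMPs & OE-Hdac3 and 75 and 202 counts with SAHA. It had 29 and 40 counts with in vitro PSMPs, against 19 and 23 counts in con-in vitro. With in vivo PSMPs it had 416 counts, against 2437 and 2490 counts in con.

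Acadl (ENSMUSG00000026003.5, chr1:66830839-66863277, minus strand), for long chains, had 7.16 and 6.0 CPM with PSMPs & OE-Hdac3, 33.6 and 30.7 CPM with SAHA, 5.67 CPM with in vivo PSMPs and 17.0 and 22.5 CPM with in vitro PSMPs, against 3.86 and 0 CPM in con-in vitro and 17.8 and 7.76 CPM in con. The SAHA libraries lay above all others, and the in vivo PSMPs library lay below both con libraries. Acadm (ENSMUSG00000062908.12, chr3:153922357-153944632, minus strand), for medium chains, had 22.6 and 12.7 CPM with PSMPs & OE-Hdac3, 145 and 143 CPM with SAHA, 118 CPM with in vivo PSMPs and 70.9 and 104 CPM with in vitro PSMPs, against 0.297 and 13.4 CPM in con-in vitro and 157 and 82.6 CPM in con. Con-in vitro and PSMPs & OE-Hdac3 formed an overlapping low pair, below every library of the other groups. Acads (ENSMUSG00000029545.13, chr5:115110299-115119346, minus strand), for short chains, had 3 and 4 counts with PSMPs & OE-Hdac3, 0 and 5 with SAHA, 1 and 1 with in vitro PSMPs, and 0 with in vivo PSMPs and in all control libraries. Those counts are too few for a comparison.

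The 300-base windows around the annotated starts of Cpt1a (chr19:3323051-3323350), Acadvl (chr11:70015379-70015678) and Acadm (chr3:153944594-153944893) are printed because they are the 3 of the 9 members that hold AGGTCA, the core hexamer bound by nuclear receptors such as the peroxisome proliferator-activated receptors, regulators of fatty acid oxidation. They come from RefSeq on GRCm38.p6 and run 5′ to 3′ on the gene's own strand, and capitals mark the hexamer, which reads as TGACCT on the opposite strand.
Cpt1a: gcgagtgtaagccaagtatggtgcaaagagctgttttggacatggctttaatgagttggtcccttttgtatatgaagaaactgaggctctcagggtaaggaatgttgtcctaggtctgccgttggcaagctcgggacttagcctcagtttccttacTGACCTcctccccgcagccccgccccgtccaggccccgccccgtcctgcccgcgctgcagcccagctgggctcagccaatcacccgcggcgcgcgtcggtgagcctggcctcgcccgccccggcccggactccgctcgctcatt
Acadvl: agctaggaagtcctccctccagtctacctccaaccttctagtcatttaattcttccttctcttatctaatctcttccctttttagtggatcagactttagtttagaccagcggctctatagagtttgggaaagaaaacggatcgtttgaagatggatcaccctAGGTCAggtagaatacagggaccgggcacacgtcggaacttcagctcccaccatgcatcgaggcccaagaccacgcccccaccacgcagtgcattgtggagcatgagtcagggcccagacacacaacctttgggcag
Acadm: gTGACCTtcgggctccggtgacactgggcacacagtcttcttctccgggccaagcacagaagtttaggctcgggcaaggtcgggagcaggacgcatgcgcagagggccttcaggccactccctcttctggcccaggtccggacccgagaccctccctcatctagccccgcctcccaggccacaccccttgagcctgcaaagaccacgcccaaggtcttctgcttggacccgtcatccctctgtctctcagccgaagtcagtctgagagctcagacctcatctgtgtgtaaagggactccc
Counted from the annotated start, the hexamer began at position -94 in Cpt1a, -87 in Acadvl and -249 in Acadm. Of all 32851 windows of this length, 16.3% held AGGTCA on either strand. A match is a description of these letters, and no binding was measured. Acadm was the farthest member from Cpt1a and from Acadvl, with root mean square differences of 1.63 and 1.52 on the centred log2 scale. It was also the farthest from Cpt2, Acads, Hadha, Hadhb and Etfdh, so this distance is not particular to genes with the hexamer. Any link between the hexamer and the levels was not tested.

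Hadha and Hadhb encode the alpha and beta subunits of the trifunctional protein, which work as 1 complex, and the genes lie head to head on chromosome 5. Hadha (ENSMUSG00000025745.12, chr5:30118304-30155162, minus strand) had 37.4 and 36.1 CPM with PSMPs & OE-Hdac3, 14.3 and 10.6 CPM with SAHA, 17.5 CPM with in vivo PSMPs and 19.4 and 21.0 CPM with in vitro PSMPs, against 10.7 and 36.3 CPM in con-in vitro and 2.43 and 9.64 CPM in con. Both con libraries lay below every other library, and the con-in vitro libraries spanned most of the range of the rest. Hadhb (ENSMUSG00000059447.13, chr5:30155248-30184593, plus strand) had 14.3 and 14.1 CPM with PSMPs & OE-Hdac3, 28.6 and 52.5 CPM with SAHA, 22.0 CPM with in vivo PSMPs and 32.4 and 28.4 CPM with in vitro PSMPs, against 18.1 and 0.273 CPM in con-in vitro and 17.3 and 3.17 CPM in con. Each control group had 1 library near the exposed oocytes and 1 far below them.

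The paired subunits moved in opposite directions between replicates of the same control group. Per length, the ratio of Hadha to Hadhb was 1.97 and 1.93 with PSMPs & OE-Hdac3, 0.376 and 0.153 with SAHA, 0.6 with in vivo PSMPs and 0.451 and 0.56 with in vitro PSMPs, against 0.446 and 100 in con-in vitro and 0.106 and 2.3 in con. The ratio of 100 rests on a single Hadhb count (95% counting interval 17.7 to 4000). For Acadl, Acadm, Hadha and Hadhb the replicates lay farthest apart in con-in vitro. For Cpt1a, Cpt2, Acadvl, Acads and Etfdh they lay farthest apart in an exposed or treated group. Between replicates Hadhb differed by 3.91 in con-in vitro and by 2.14 in con on the log2(CPM + 1) scale, and Acadm by 3.47 in con-in vitro, where the median gene differed by 0.70 and 0.72 and only 9.79% and 16.2% of genes differed by more than 2 in con-in vitro and con. A pseudogene copy, Hadhb-ps, had 115 counts with PSMPs & OE-Hdac3 beside 375 of Hadhb, 619 beside 1430 with SAHA, 114 beside 853 with in vivo PSMPs and 280 beside 751 with in vitro PSMPs, against 4 beside 62 in con-in vitro and 138 beside 622 in con. How reads were divided between the copies is not given in the sources used here, so the size of the uncertainty in Hadhb is not known.

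**Figure D3:**
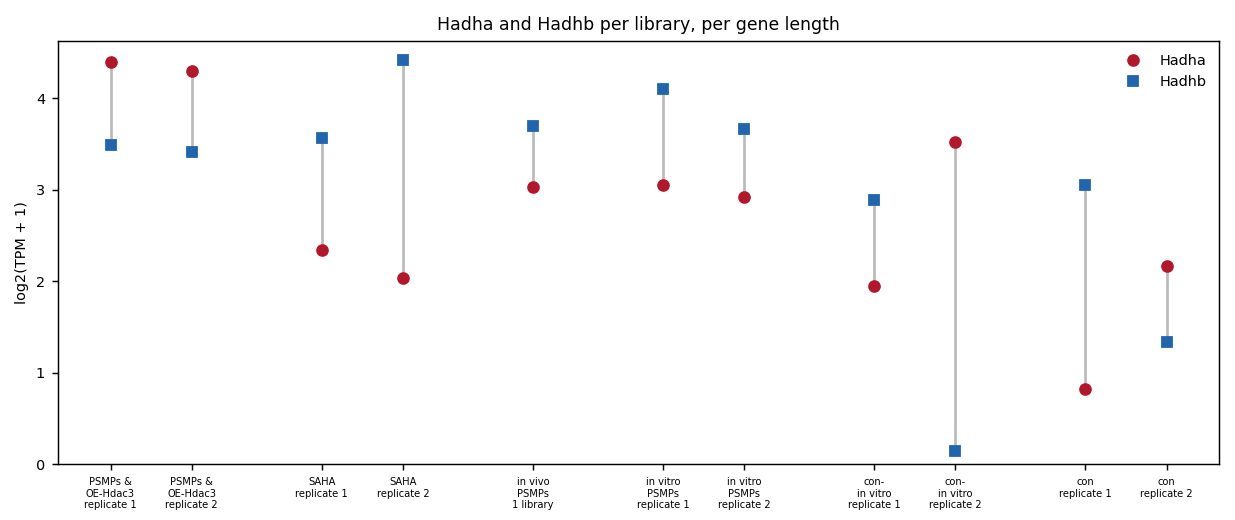
Hadha (red circles) and Hadhb (blue squares) in each library as log2(TPM + 1), joined by a line, for 2 libraries per group and 1 for in vivo PSMPs. Hadha lies above Hadhb in both PSMPs & OE-Hdac3 libraries, in con-in vitro replicate 2 and in con replicate 2, and below it in the other 7 libraries.

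Because the 2 genes start close to each other, the window of Hadhb, which holds the stretch they share, is printed. Their annotated starts lie 273 bases apart, and the 300-base windows of the genes have 228 bases in common (chr5:30155003-30155230). The sequence is the RefSeq window of Hadhb on the plus strand of GRCm38.p6 (chr5:30155003-30155302), with capitals on GGGCGG, the GC box bound by Sp1-type factors, in either orientation.
Hadhb: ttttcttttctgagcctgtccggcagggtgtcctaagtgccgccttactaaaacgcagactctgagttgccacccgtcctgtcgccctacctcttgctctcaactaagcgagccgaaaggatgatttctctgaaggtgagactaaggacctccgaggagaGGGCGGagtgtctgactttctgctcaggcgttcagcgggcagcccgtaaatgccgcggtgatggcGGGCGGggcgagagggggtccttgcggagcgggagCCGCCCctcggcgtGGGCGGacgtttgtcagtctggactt
The window holds 4 GC boxes, at positions -90, -25, 10 and 24 from the Hadhb start. A GC box was present in 7 of the 9 members' windows and in 35.7% of all windows. The letters TATAAA were in none of the 9 and in 13.6% of all windows.

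Etfdh (ENSMUSG00000027809.14, chr3:79603788-79629500, minus strand) encodes the membrane enzyme that collects electrons from the acyl-CoA dehydrogenases. It had 1.89 and 1.36 CPM with PSMPs & OE-Hdac3, 0.339 and 0.853 CPM with SAHA and 1.34 CPM with in vivo PSMPs. With in vitro PSMPs it had 1.54 and 0.242 CPM, against 0 and 0.273 CPM in con-in vitro and 0 in both con libraries. Its level was low throughout, and only in vitro PSMPs replicate 1 reached the range of the PSMPs & OE-Hdac3 libraries. Its exons share 278 bases with 4930579G24Rik on the other strand, a gene with 14 and 16 counts with SAHA and 26 counts with in vivo PSMPs, against 0 and 2 counts in con, so that some of these reads may belong to either.

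Exposure in the animal went with more Cpt1a. Against con, the in vivo PSMPs library had 158 Cpt1a counts and con had none, which makes it at least 91.8-fold higher against a floor of 3 counts over the con libraries, and Cpt1a rose by edgeR's quasi-likelihood test (adjusted p = 0.0463). It was the 1 member called of 8 tested, beside 4.59% of all tested genes called higher and 0.287% called lower. Having 0 counts in con, Cpt1a passed the count filter only through other groups and could only be called higher. Cpt2 was 4.41-fold higher (log2 2.14 ± 0.63 SE, edgeR adjusted p = 0.0691) and Etfdh at least 30.2-fold higher (edgeR adjusted p = 0.0535), and neither passed. The log2 differences of Hadha and Hadhb were 1.53 ± 0.97 and 1.10 ± 1.52, that of Acadl was -1.17 ± 1.52, and that of Acadm was -0.02 ± 1.16, none of which passed, and Acadvl had 1 count with in vivo PSMPs and 0 in con. The median over the 7 members with a value was 1.53, beside 0.25 over all genes. With 1 in vivo library its spread was taken from the other groups. The Cpt1a call was lost on leaving out either library of in vitro PSMPs, SAHA or PSMPs & OE-Hdac3. A fit of only the groups compared, which called 0% of all genes, lost it too. It was also lost with the replicate block and with a filter over the merged libraries. It held without either con library, where 3 members were called: Cpt1a, Cpt2 and Etfdh without replicate 1, and Cpt1a, Hadha and Etfdh without replicate 2. Without either con-in vitro library Cpt1a and Etfdh were called, and the granulosa cell marker sum given above was higher in the same library.

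Exposure in culture went with higher values of most members, but none passed the test. Against con-in vitro, Acadm averaged 87.6 ± 23.6 CPM with in vitro PSMPs and 6.84 ± 9.26 CPM in con-in vitro (SD, n = 2 each), a log2 difference of 3.67 ± 1.08 (SE; edgeR adjusted p = 0.051). Acadl averaged 19.7 ± 3.84 CPM with in vitro PSMPs and 1.93 ± 2.73 CPM in con-in vitro (SD, n = 2 each), a log2 difference of 3.36 ± 1.33 (SE; edgeR adjusted p = 0.118). Acadvl was at least 3.98-fold higher (edgeR adjusted p = 0.0562), and Cpt2 was 2.87-fold higher (log2 1.52 ± 0.55, edgeR adjusted p = 0.0937). Hadhb differed by 1.73 ± 1.34 and Hadha by -0.22 ± 0.83 on the log2 scale, and the Hadha libraries overlapped; with libraries scaled by their totals Hadha turned to 0.74. Etfdh rested on 1 count in con-in vitro, with a ratio of 6.26 (95% counting interval 1.01 to 258), and Cpt1a on 4 counts with in vitro PSMPs and 0 in con-in vitro; neither was called.

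No member of 8 was called with edgeR, beside 8.57% of genes called higher and 6.78% called lower (55.8% of the calls were higher, and 82.1% with libraries scaled by their totals). By unadjusted p, 4 members were under 0.05, beside 32.9% of all genes, and DESeq2 called 3, beside 27.5% of all genes. The median log2 difference of the members was 2.98, beside 0.71 over all genes. With members at 0 set to their bound it was 1.86, and no bounds were set for the all-gene median. The count was 4 without either con library (Cpt2, Acadvl, Acadl and Acadm), 3 without con-in vitro replicate 1, where Acadl, Acadm and Hadhb passed, and 1, Acadm, without con-in vitro replicate 2. The log2 difference of Acadm was 2.71 without con-in vitro replicate 1. Without replicate 2 Acadm had 1 count left in con-in vitro, and its ratio was 295 (95% counting interval 53 to 11700). The log2 difference of Acadl was 2.35 without replicate 2. Without replicate 1 Acadl had no counts left in con-in vitro.

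**Figure D4:**
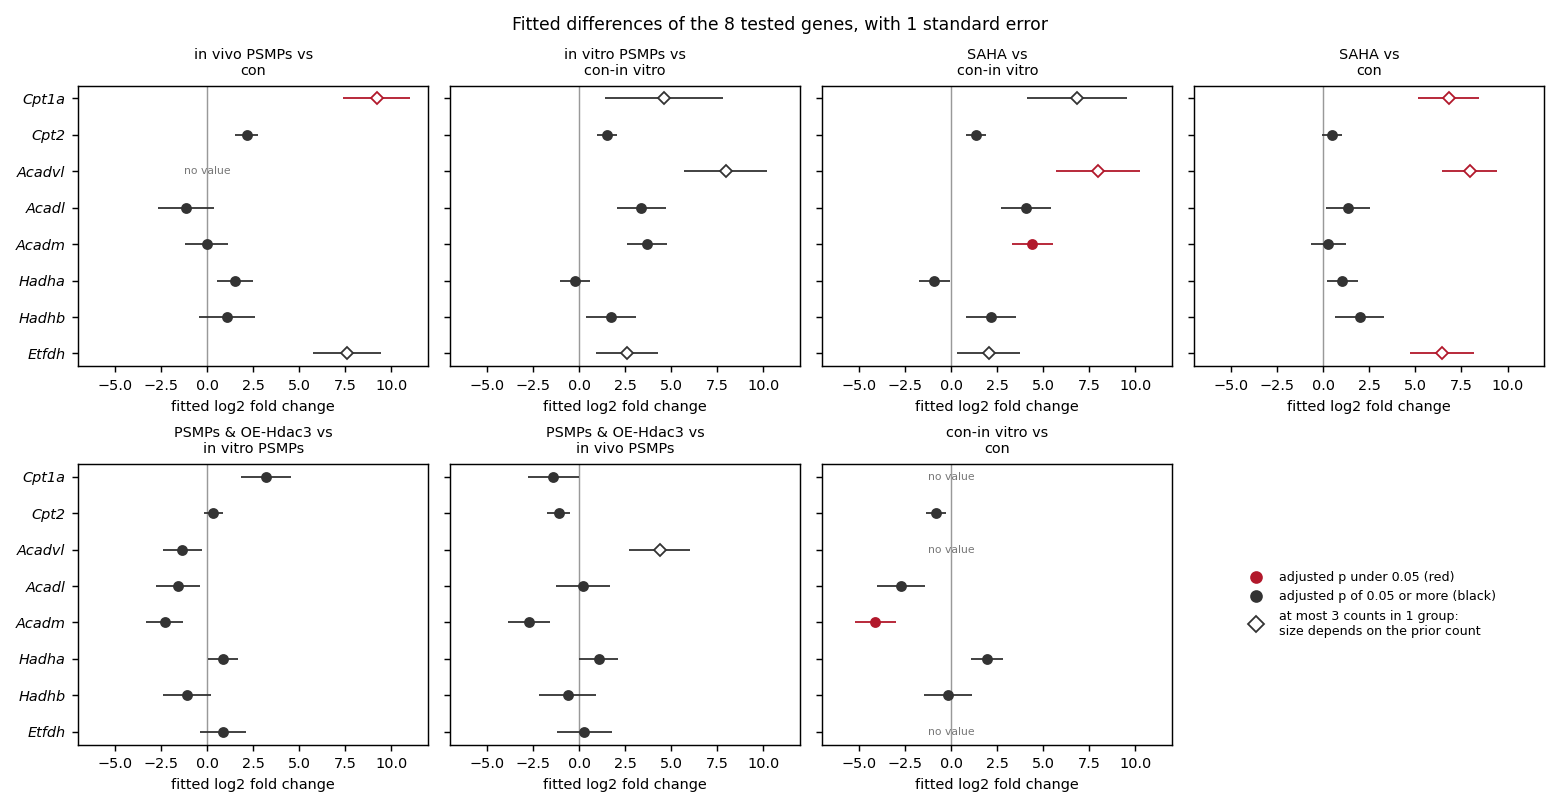
Fitted log2 fold change (points) with 1 standard error (bars) of the 8 tested genes in each comparison; red marks an adjusted p under 0.05, open diamonds mark genes with at most 3 counts in a group, whose size depends on the prior count, and "no value" marks genes at or under 3 counts in both groups. The 7 red marks are Cpt1a with in vivo PSMPs, Acadvl and Acadm for SAHA against con-in vitro, Cpt1a, Acadvl and Etfdh for SAHA against con, and Acadm for con-in vitro against con.

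SAHA went with higher Acadm and Acadvl relative to con-in vitro. Acadm averaged 144 ± 1.61 CPM with SAHA and 6.84 ± 9.26 CPM in con-in vitro (SD, n = 2 each), and it rose 21.1-fold (log2 4.39 ± 1.11 SE, edgeR adjusted p = 0.0264). Acadvl rose at least 3.99-fold (edgeR adjusted p = 0.0481). These were 2 of 8 members, beside 11.7% of genes called higher and 8.14% called lower (58.9% of the calls were higher, and 77.8% with libraries scaled by their totals). Acadvl had 0 counts in con-in vitro, so it passed the count filter only through other groups and could only be called higher. Dvl2, which shares exonic bases with Acadvl, also had more counts with SAHA, and reads from the shared stretch cannot be told apart. Acadl, at 32.1 ± 2.05 CPM with SAHA and 1.93 ± 2.73 CPM in con-in vitro (SD, n = 2 each), did not pass (log2 4.06 ± 1.37 SE, edgeR adjusted p = 0.0667). Cpt1a was at least 1.8-fold higher, the log2 differences of Cpt2, Hadha and Hadhb were 1.33 ± 0.55, -0.92 ± 0.83 and 2.15 ± 1.36, and Etfdh had a ratio of 4.19 (95% counting interval 0.673 to 173), none of which passed. The member median was 3.11 on the log2 scale, beside 0.66 over all genes. With bounds for the members it was 2.03, and no bounds were set for the all-gene median. Acadm lost its call without either library of in vitro PSMPs or SAHA (adjusted p up to 0.102), and its log2 difference was 3.43 without con-in vitro replicate 1. Without replicate 2 it rested on 1 count in con-in vitro, with a ratio of 486 (95% counting interval 87.1 to 19200). Among fits that left out a column, Acadvl kept its call in those without a con library or an in vivo PSMPs column and lost it in the other 8 (adjusted p up to 0.143). Without con-in vitro replicate 1, Acadl, Acadm and Hadhb were called. Fitting only the groups compared ended both edgeR calls of the full fit, beside 15.5% of all genes called in that fit. The replicate block, no filter and a filter over the merged libraries also ended the Acadvl call. The con-in vitro libraries are shared with the comparison of in vitro PSMPs.

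Relative to con, SAHA went with higher levels of 3 genes that con did not show at all. Acadvl rose at least 38.4-fold (edgeR adjusted p = 0.0136), Cpt1a at least 17.3-fold (edgeR adjusted p = 0.0247) and Etfdh at least 13.4-fold (edgeR adjusted p = 0.0286). That is 3 of 8 members, beside 20.2% of genes called higher and 6.75% called lower. With 0 counts in con, the 3 passed the count filter only through other groups and could only be called higher. The same held for the 21% of tested genes at 0 in con, and the share of those called was not counted. Acadm was 1.21-fold and Cpt2 1.41-fold of con with overlapping libraries, and the log2 differences of Acadl, Hadha and Hadhb were 1.33 ± 1.20, 1.04 ± 0.83 and 1.99 ± 1.33, none of which passed. The member median was 1.66, beside 0.59 over all genes. All 3 calls were lost without either SAHA library. Cpt1a was also lost without either library of in vitro PSMPs or PSMPs & OE-Hdac3, and Etfdh without con replicate 2 or either PSMPs & OE-Hdac3 library (adjusted p up to 0.0905 for Cpt1a, 0.103 for Etfdh and 0.0589 for Acadvl). Fitting only the groups compared also ended all 3 calls, and that fit called 0% of all genes. The replicate block ended the Cpt1a and Etfdh calls. The con libraries are shared with the comparison of in vivo PSMPs.

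Hdac3 overexpression under PSMPs was set against both exposures. Against in vitro PSMPs, Acadm averaged 17.7 ± 6.96 CPM with PSMPs & OE-Hdac3 and 87.6 ± 23.6 CPM with in vitro PSMPs (SD, n = 2 each), a log2 difference of -2.31 ± 1.00 (SE; edgeR adjusted p = 0.245). Both libraries also lay below both in vitro PSMPs libraries for Acadvl, Acadl and Hadhb, with log2 differences of -1.34 ± 1.06, -1.58 ± 1.21 and -1.10 ± 1.30. Cpt1a lay above (log2 3.20 ± 1.35, edgeR adjusted p = 0.253), as did Hadha (0.86 ± 0.83), while Cpt2 (0.34 ± 0.53) and Etfdh (0.86 ± 1.25) overlapped. No member was called with edgeR, beside 1.85% of genes called higher and 2.98% called lower (38.2% of the calls were higher, and 64.2% with libraries scaled by their totals); 2 members had an unadjusted p under 0.05, beside 19.6% of all genes, and DESeq2 called 0, beside 15.4%. The member median was -0.38, beside 0.09 over all genes. Acadm was called without either con-in vitro library, and 4 members, Cpt1a, Acadl, Acadm and Hadhb, were called when only the groups compared were fitted, beside 33.3% of all genes in that fit.

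Against in vivo PSMPs, PSMPs & OE-Hdac3 averaged 17.7 ± 6.96 CPM of Acadm (SD, n = 2), against 118 CPM in the in vivo PSMPs library, which did not pass (log2 -2.74 ± 1.13 SE, edgeR adjusted p = 0.315). Acadvl had 18 counts with PSMPs & OE-Hdac3 and 1 count with in vivo PSMPs, a ratio of 26.5 (95% counting interval 4.18 to 1100; edgeR adjusted p = 0.306). Cpt1a and Cpt2 lay below the in vivo PSMPs library, with log2 differences of -1.40 ± 1.38 and -1.12 ± 0.63, and Hadha above it, with 1.07 ± 1.06. No member was called, beside 0% of genes called higher and 0% called lower by edgeR. At an unadjusted p under 0.05 there were 2 members and 14.4% of all genes (2407), and DESeq2 called 0 members and 5.07% of all genes (849). The member median was -0.21, beside 0.23 over all genes. When only the groups compared were fitted, 6 members were called, Cpt1a, Cpt2, Acadvl, Acadm, Hadha and Hadhb, beside 44.6% of all genes in that fit. The comparison shares the PSMPs & OE-Hdac3 libraries with the one above.

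The controls themselves differed. Acadm fell to 6.84 ± 9.26 CPM in con-in vitro, against 120 ± 52.3 CPM in con (SD, n = 2 each; log2 -4.12 ± 1.10 SE, edgeR adjusted p = 0.0279). It was the 1 member called, beside 14.7% of genes called higher and 10.5% called lower (58.3% of the calls were higher, and 38.2% with libraries scaled by their totals). Acadl differed by -2.73 ± 1.31 (edgeR adjusted p = 0.165), Cpt2 by -0.84 ± 0.55 and Hadha by 1.96 ± 0.86 on the log2 scale (edgeR adjusted p = 0.132 for Hadha). Hadhb differed by -0.16 ± 1.31, with overlapping libraries. The median over the 5 members with a value was -0.84, beside 0.00 over all genes. The call was lost without either library of in vitro PSMPs or SAHA (adjusted p up to 0.0626), and the Acadm difference was -3.16 without con-in vitro replicate 1. Without replicate 2 con-in vitro had 1 Acadm count, and the ratio of con to con-in vitro was 384 (95% counting interval 69 to 15200). The count was 3 without con replicate 2, with Acadl and Hadha added, and 3 without con-in vitro replicate 1, with Acadl and Hadhb added. Fitting only the groups compared also ended the Acadm call, beside 8.97% of all genes called in that fit. These control libraries also serve the comparisons above.

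Whether exposure acted differently in the animal and in culture was tested as the in vivo effect minus the in vitro effect. The difference was -4.53 ± 2.11 for Acadl (SE, edgeR adjusted p = 0.199), -3.69 ± 1.65 for Acadm (SE, edgeR adjusted p = 0.183) and 5.01 ± 2.33 for Etfdh (SE, edgeR adjusted p = 0.206) on the log2 scale. It was 0.62 ± 0.84 for Cpt2, 1.75 ± 1.28 for Hadha and -0.63 ± 2.06 for Hadhb. No member was called with edgeR, beside 6.4% of genes called higher and 4.87% called lower (56.8% of the calls were higher, and 38.5% with libraries scaled by their totals); 0 members had an unadjusted p under 0.05, beside 28.5% of all genes, and DESeq2 called 1, Acadl, beside 24.6%. Acadl was also called without con-in vitro replicate 1, and Acadm without con-in vitro replicate 2.

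The rest of the pathway was read from 6 gene lists with 99 tested genes. With in vivo PSMPs against con, none of the 99 was called by edgeR, 24 had an unadjusted p under 0.05, beside 26.3% of all genes, and DESeq2 called 12, beside 16.1%; the gene of smallest p in a list was Slc27a4, a fatty acid transport protein, Decr1, a dienoyl-CoA reductase, Acox2, a peroxisomal oxidase, or Ncoa1, with edgeR adjusted p = 0.0612, 0.0958, 0.0595 and 0.0896. With in vitro PSMPs against con-in vitro, 9 rose and 8 fell of 99, beside 8.57% and 6.78% of all genes. Among 21 other mitochondrial enzymes and electron carriers, Echs1, the short-chain enoyl-CoA hydratase, averaged 82.2 ± 4.43 CPM with in vitro PSMPs and 4.28 ± 5.28 CPM in con-in vitro (SD, n = 2 each; edgeR adjusted p = 0.012). Acat1, the acetoacetyl-CoA thiolase, rose 4.66-fold (edgeR adjusted p = 0.0146), and Acadsb, the dehydrogenase of short branched chains, rose 13.7-fold (edgeR adjusted p = 0.0417). Etfa was the other member of the list that rose, named here to complete its count. Hadh, the 3-hydroxyacyl-CoA dehydrogenase of shorter chains, fell to 5.90 ± 2.05 CPM with in vitro PSMPs, against 71.6 ± 24.7 CPM in con-in vitro (SD, n = 2 each; edgeR adjusted p = 0.0173), and the thioesterase Acot2 fell to 2.14 ± 0.739 CPM, against 98.6 ± 3.10 CPM (SD, n = 2 each; edgeR adjusted p = 0.00198). In con, Acot2 stood at 2.04 CPM, Hadh at 7.43, Echs1 at 158 and Acat1 at 368, and each of the 4 was called between con-in vitro and con (edgeR adjusted p = 0.00159, 0.0177, 0.00427 and 0.00788). For all 4 the mean with in vitro PSMPs lay nearer to con than to its own culture control. Both tests use the same con-in vitro libraries, and choosing genes called against them favours this order, so no conclusion is drawn from it. Etfa, at 260 CPM in con, was also called between the controls (edgeR adjusted p = 0.031). Acadsb, at 28.3 CPM in con, was not (edgeR adjusted p = 0.0693). The list held genes of neighbouring steps that were called in opposite directions, 4 higher and 2 lower of 21, with a median of 0.75 beside 0.71 over all genes.

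Of the 12 carnitine shuttle and fatty acid activation genes, Acsl4, a long-chain acyl-CoA synthetase, fell to 24.0 ± 1.20 CPM with in vitro PSMPs, against 495 ± 89.4 CPM in con-in vitro (SD, n = 2 each; edgeR adjusted p = 3.01e-04), and the other 11 were not called; the list's median log2 difference was -0.33. Acsl4 stood at 42.9 CPM in con, and it was 11.5-fold higher in con-in vitro than in con (edgeR adjusted p = 6.04e-04). Among 13 peroxisomal genes, Pecr, a trans-2-enoyl-CoA reductase, was the 1 called and rose 9.63-fold (edgeR adjusted p = 5.96e-04), with a list median of 2.09. Among 25 regulators none rose and 3 fell: Ncoa1, a nuclear receptor coactivator, was at 0.0147 of its con-in vitro level, Stk11, the kinase upstream of AMPK, at 0.0227, and the transcription factor Foxo1 at 0.301 (edgeR adjusted p = 2.17e-04, 0.00222 and 0.0272), with a list median of -0.43. Ncoa1 averaged 15.0 CPM with in vitro PSMPs, against 1020 CPM in con-in vitro, but 18.0 CPM in con, so that it was 56.8-fold higher in con-in vitro than in con (edgeR adjusted p = 2.31e-04). Stk11 and Foxo1 were not called between the controls (edgeR adjusted p = 0.269 and 0.917). With SAHA against the same con-in vitro libraries, 12 rose and 8 fell of 99, beside 11.7% and 8.14% of all genes, and with SAHA against con, 16 rose and 5 fell, beside 20.2% and 6.75%.

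With PSMPs & OE-Hdac3 against in vitro PSMPs, 3 of the 99 rose and 4 fell, beside 1.85% and 2.98% of all genes. Etfa fell to 77.7 ± 0.396 CPM with PSMPs & OE-Hdac3, against 258 ± 1.27 CPM with in vitro PSMPs (SD, n = 2 each; edgeR adjusted p = 0.0206), and Pecr fell to 205 ± 20.0 CPM, against 1140 ± 231 CPM (SD, n = 2 each; edgeR adjusted p = 0.0113). Stk11 rose 29.8-fold (edgeR adjusted p = 0.0143) and Foxo1 rose 6.09-fold (edgeR adjusted p = 0.0163). The median log2 difference was 0.92 over the 21 mitochondrial genes, 0.43 over the 13 peroxisomal genes, 1.37 over the 25 regulators and 0.34 over the 12 carnitine shuttle and activation genes, of which none was called, beside 0.09 over all genes. This comparison shares the in vitro PSMPs libraries with that against con-in vitro. With PSMPs & OE-Hdac3 against in vivo PSMPs, edgeR called none of the 99, 13 had an unadjusted p under 0.05, beside 14.4% of all genes, and DESeq2 called 5, beside 5.07%. With con-in vitro against con, 13 rose and 11 fell, beside 14.7% and 10.5% of all genes, and for the in vivo effect minus the in vitro effect, 7 were higher and 5 lower, beside 6.4% and 4.87%.

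Averaged over the 8 tested members on the centred log2(CPM + 1) scale, the group profile stood at 0.06 with PSMPs & OE-Hdac3, 0.56 with SAHA, 0.47 with in vivo PSMPs and 0.39 with in vitro PSMPs, against -1.06 in con-in vitro and -0.41 in con. Hadhb was the member closest to that mean, with a root mean square difference of 0.355, and Acadm the farthest, at 1.24. The pair most unlike each other was Acadm and Hadha, at 2.17. Among 7153 other genes with a mean of at least 10 CPM, the 5 most like the mean profile over the 6 groups were Pomgnt1 (0.143), Lclat1 (0.163), Knstrn (0.18), Ints12 (0.185) and Srp19 (0.188). The summed level of the 9 was 146 and 118 CPM with PSMPs & OE-Hdac3, 251 and 287 CPM with SAHA, 283 CPM with in vivo PSMPs and 199 and 207 CPM with in vitro PSMPs, against 45.4 and 66.9 CPM in con-in vitro and 227 and 122 CPM in con. Con-in vitro was lowest in that sum.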

How the data were processed

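RNA was measured in pools of 5. Per the labels' protocols, full-length cDNA was amplified with a kit for single cells, and libraries were made with a TruePrep kit. The authors deposited raw counts per gene with exonic lengths for 55401 genes. The submitters' processing notes name HISAT2 and featureCounts among other tools, with build mm10; strand setting and treatment of multimapping reads are not given in the sources used here.

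From the deposited counts, 16736 genes passed edgeR's expression filter (minimum count 10, over the 12 deposited columns). The in vivo PSMPs columns were merged as 1 library. Libraries were scaled by TMM (factors 0.542 to 1.57), and groups were fitted together with edgeR 4.0.16 in R 4.3.3 (robust quasi-likelihood F test, 5 residual degrees of freedom, biological coefficient of variation 71.9%); p-values were adjusted over all tested genes by Benjamini-Hochberg, with 0.05 as threshold. The script was checked on simulated counts. CPM use effective library sizes; TPM use the exonic length in the deposited table. A group at 0 was given a bound against 3 counts over the group. Depth, 6219784 to 35637689 counts per library, sets a floor of 0.0773 to 0.89 CPM.

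All 9 members are named; other genes were named by list as at most the 3 called genes of smallest p per direction, and neighbouring steps were added with their values known. Members and lists were chosen with earlier results of these data known. Alternatives were a replicate block, fits of only the groups compared, DESeq2 1.42.0 (size factors and Wald test), library totals, other filters, unmerged columns and leaving out each column.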

Additional observations from a re-analysis of the deposited data

Results flagged for a closer look

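For Acadl, the exposed libraries lay on opposite sides of their controls in the animal and in culture, and neither effect passed. The in vivo PSMPs library, at 5.67 CPM, lay below both con libraries at 17.8 and 7.76 CPM, while both in vitro PSMPs libraries, at 17.0 and 22.5 CPM, lay above both con-in vitro libraries at 3.86 and 0 CPM. The log2 difference was -1.17 ± 1.52 for in vivo PSMPs against con (SE, edgeR adjusted p = 0.707) and 3.36 ± 1.33 for the exposure in culture (SE, edgeR adjusted p = 0.118). The test of the difference itself gave -4.53 on the log2 scale (edgeR adjusted p = 0.199), which did not pass, and the in vivo side rests on 1 library.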

How the results depend on the processing

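No call on a member held under every alternative. Replicate numbers did not pair the libraries: their deviations correlated between -0.29 and 0.06 over 10 pairs of groups, and none exceeded 0.1. With the replicate block, 0 members were called for in vivo PSMPs against con, 1 for SAHA against con-in vitro (Acadm) and 1 for SAHA against con (Acadvl). With library totals as scale, 3, 4 and 4 members were called for in vivo PSMPs against con, in vitro PSMPs against con-in vitro and SAHA against con-in vitro; the DESeq2 Wald test called 3, 3, 3 and 1 for in vivo PSMPs against con, in vitro PSMPs against con-in vitro, con-in vitro against con and the difference of effects. With no filter 2 were called for in vivo PSMPs against con, and with a filter at 50 counts 1 each for PSMPs in culture against con-in vitro, SAHA against con-in vitro and SAHA against con. With the in vivo columns as 2 libraries, 3, 3 and 1 were called for in vivo PSMPs against con, in vitro PSMPs against con-in vitro and PSMPs & OE-Hdac3 against in vivo PSMPs. Fitting only the groups compared called 0 members for in vivo PSMPs against con and for SAHA against con, beside 0% of all genes in each. It called 0 for SAHA against con-in vitro and for con-in vitro against con, beside 15.5% and 8.97% of all genes. It called 4 and 6 for PSMPs & OE-Hdac3 against in vitro and in vivo PSMPs, beside 33.3% and 44.6%. A filter over the merged libraries, chosen after seeing the data, called 0 for in vivo PSMPs against con and 1 for SAHA against con-in vitro. Beyond the removal of Acadvl and Etfdh by the filter at 50 counts, the cause of these changes was not tested.

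Leaving out each column in turn gave 0 to 3 members for in vivo PSMPs against con, 0 to 4 for PSMPs in culture against con-in vitro, 0 to 3 for SAHA against con-in vitro, 0 to 3 for SAHA against con, 0 to 1 and 0 to 0 for PSMPs & OE-Hdac3 against in vitro and in vivo PSMPs, 0 to 3 for con-in vitro against con and 0 to 1 for the difference. A fit without a column leaves its group with 1 library, assumed to vary like the others.

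Directions turned as follows, on the log2 scale. With library totals, Acadm for in vivo PSMPs against con was 0.35, Hadha for PSMPs in culture against con-in vitro 0.74 and Cpt2 for the difference of effects -0.05; with only the groups compared, that Hadha value was 0.08. Leaving out columns, Acadm for in vivo PSMPs against con ran from -0.43 to 0.52, Hadhb for con-in vitro against con from -5.20 to 1.53 and Hadhb for the difference from -5.66 to 1.06. Cpt2 and Acadm for SAHA against con ran from -0.04 to 0.94 and from -0.31 to 0.80, Cpt2 for PSMPs & OE-Hdac3 against in vitro PSMPs from -0.05 to 0.87, and Hadha for in vitro PSMPs and for SAHA against con-in vitro from -0.85 to 0.92 and from -1.55 to 0.22. None of these values was called with all libraries; Hadhb for con-in vitro against con was called at -5.20 (edgeR adjusted p = 0.0446), without con-in vitro replicate 1, where 1 Hadhb count was left in con-in vitro and the size depends on the prior count.

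Scaling by library totals put the all-gene median at 0.58 in place of 0.25 for in vivo PSMPs against con, at 1.7 in place of 0.71 for PSMPs in culture against con-in vitro, at 1.37 in place of 0.66 for SAHA against con-in vitro and at -0.49 in place of 0.00 for con-in vitro against con. Over the alternatives other than leaving out a column, all genes called were 817 and 0 to 4180 for in vivo PSMPs against con, 2570 and 1417 to 4602 for PSMPs in culture against con-in vitro, 3313 and 2305 to 5327 for SAHA against con-in vitro, 4511 and 0 to 5823 for SAHA against con, 808 and 537 to 5567, and 0 and 0 to 7472, for PSMPs & OE-Hdac3 against in vitro and in vivo PSMPs, 4205 and 1502 to 5848 for con-in vitro against con, and 1886 and 255 to 4110 for the difference. Leaving out a column moved them to 0 to 4336, 1096 to 5451, 1111 to 6401, 219 to 6657, 0 to 2393, 0 to 529, 2615 to 6538 and 618 to 5028 in the same order, so the all-gene shares set beside the members move as widely. Depth limits the con-in vitro libraries most, at 6219784 and 6403283 counts.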

Other observations

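Genes of lipid storage and lipid synthesis, outside fatty acid oxidation, were called in the cultured groups. With in vitro PSMPs against con-in vitro, 2 of 11 lipid droplet and lipolysis genes rose and 2 fell, beside 8.57% and 6.78% of all genes. Pnpla3, a lipid droplet protein with lipase and acyltransferase activity, averaged 80.4 ± 38.9 CPM with in vitro PSMPs and 2.22 ± 1.88 CPM in con-in vitro (SD, n = 2 each; edgeR adjusted p = 0.00376), and Dbi, the acyl-CoA binding protein, rose 6.3-fold (edgeR adjusted p = 0.0135). The fatty acid translocase Cd36 fell to 121 ± 4.68 CPM with in vitro PSMPs, against 1540 ± 126 CPM in con-in vitro (SD, n = 2 each; edgeR adjusted p = 0.00118), and the lipid droplet coat gene Plin3 fell to 49.6 ± 16.5 CPM, against 620 ± 223 CPM (SD, n = 2 each; edgeR adjusted p = 0.00766). Of 17 fatty acid synthesis genes, Elovl1, an elongase, rose 5.89-fold (edgeR adjusted p = 0.0205) and Me1, the cytosolic malic enzyme, rose 3.7-fold (edgeR adjusted p = 0.0207); none fell. Con-in vitro stood apart from con for several of these genes: Cd36 had 57.5 CPM and Plin3 6.34 CPM in con, and they were 26.8-fold and 97.8-fold higher in con-in vitro than in con (edgeR adjusted p = 3.80e-04 and 6.59e-04), while Dbi at 88.6 CPM and Elovl1 at 38.1 CPM in con were called lower in con-in vitro (edgeR adjusted p = 0.0037 and 0.0376). Pnpla3 and Me1, at 3.95 and 392 CPM in con, were not called between the controls (edgeR adjusted p = 0.491 and 0.513). The median log2 difference was 0.56 over the 11 and 0.84 over the 17 genes, beside 0.71 over all genes.

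With PSMPs & OE-Hdac3 against in vitro PSMPs, Pnpla3 fell to 2.91 ± 0.39 CPM, against 80.4 ± 38.9 CPM with in vitro PSMPs (SD, n = 2 each; edgeR adjusted p = 0.0158), and Me1 fell to 221 ± 13.8 CPM, against 1060 ± 109 CPM (SD, n = 2 each; edgeR adjusted p = 0.0237). Fabp5, a fatty acid binding protein, rose 3.34-fold (edgeR adjusted p = 0.0275). The comparison shares its in vitro PSMPs libraries with the one above. With in vivo PSMPs against con, edgeR called 0 of the 11 and 0 of the 17 genes, 3 and 8 had an unadjusted p under 0.05, beside 26.3% of all genes, and DESeq2 called 3 and 4, beside 16.1%; the medians were -0.29 and 2.16, beside 0.25 over all genes.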
